A study of Mus musculus with 24 samples.

Results

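The neurotrophins and the glial cell line-derived neurotrophic factor (GDNF) family are the main target-derived survival and growth factors of sensory neurons. The genes described here are 9 ligand and receptor genes of these families, namely *Bdnf*, *Gdnf*, *Ntrk2*, *Ntrk3*, *Ngfr*, *Ret*, *Gfra1*, *Gfra2* and *Gfra3*. They were chosen by name: every non-control probe whose gene name in the array files equals a member was taken. This gave 9 of 27398 gene names, 15 of 41174 probes and 60 of 43379 spots per array.

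Gene expression was measured in dorsal root ganglia (DRGs, the ganglia that hold the cell bodies of sensory neurons) from lumbar levels L4 and L5 of adult male C57BL/6J mice. The left sciatic nerve was cut and its endings were sutured together, and ganglia were taken 2 or 5 days later. Control ganglia came from the non-injured side. *Nfil3* KO mice were Nfil3 -/-, from a null allele made by crossing Nfil3 lox/+ mice with mice that carried Cre under the human CMV promoter, so that the gene was deleted in the germ line and missing from all cells. *Nfil3* WT mice were Nfil3 +/+ littermates. *Nfil3* encodes a bZIP repressor of transcription that is induced in DRG neurons after nerve injury. The 6 groups were WT control, WT day 2, WT day 5, KO control, KO day 2 and KO day 5, each with 4 samples, and the sources used here do not say how many animals a sample holds. The control of each genotype is shared by its day 2 and day 5 comparisons. A p-value of the linear model used here (limma) rests on the spread between the 4 samples within a group, pooled over all 6 groups.

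Neurotrophins act through the Trk receptor tyrosine kinases and through the low-affinity receptor p75NTR, which *Ngfr* encodes. Brain-derived neurotrophic factor (*Bdnf*) binds TrkB (*Ntrk2*), and neurotrophin-3 binds TrkC (*Ntrk3*). Ligands of the GDNF family bind a GPI-anchored co-receptor that brings them to the tyrosine kinase RET. GFRα1 (*Gfra1*) prefers GDNF, GFRα2 (*Gfra2*) prefers neurturin and GFRα3 (*Gfra3*) prefers artemin. In the DRG these receptors mark classes of sensory neuron: *Ntrk3* is typical of large proprioceptive and mechanoreceptive neurons, *Ntrk2* of some mechanoreceptors, *Gfra2* with *Ret* of non-peptidergic nociceptors, and *Gfra3* of peptidergic nociceptors. p75NTR is made by many of these neurons and by glia.

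Each probe was an oligonucleotide of 60 bases. The probes below are shown because they lie in protein-coding sequence and carry most of the results; each is printed 5′ to 3′ in the sense of the transcript, as the array design gives it, in lower case throughout since no base within it is singled out.
*Bdnf* probe A_51_P261991: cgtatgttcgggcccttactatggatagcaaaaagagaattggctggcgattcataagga
*Gfra1* probe A_52_P311022: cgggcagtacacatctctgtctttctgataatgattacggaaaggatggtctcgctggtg
*Gfra2* probe A_51_P321972: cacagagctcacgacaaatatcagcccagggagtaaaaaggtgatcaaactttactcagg
*Ntrk3* probe A_52_P55706: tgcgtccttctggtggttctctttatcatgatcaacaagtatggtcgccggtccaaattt
*Ngfr* probe A_51_P384968: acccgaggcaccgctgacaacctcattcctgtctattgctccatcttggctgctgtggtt
In the mouse build mm9, which the array files use, the *Bdnf* probe lies at chr2:109564203-109564262, in the part that encodes the mature neurotrophin, and is therefore common to the transcripts that start from the gene's several promoters. The *Gfra1* probe spans an intron, at chr19:58313006-58313772, and so does the *Gfra2* probe, at chr14:71377110-71378233. The *Ntrk3* probe, at chr7:85595783-85595842, and the *Ngfr* probe, at chr11:95435537-95435596, lie in the stretches that encode the membrane-spanning part of each receptor, so the *Ntrk3* probe does not separate full-length TrkC from its truncated forms.

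All values below are log2 intensities after normalisation, and all differences are on that log2 scale. A difference was called when its limma p-value, adjusted over all 41174 probes by the Benjamini-Hochberg method, was under 0.05, and where a gene had several probes the one with the highest mean over all samples stood for it. Intensity depends on the probe, so levels were compared between samples for the same probe and never between probes. Of the 15 probes, 14 were well above background in all 24 samples, and the *Gdnf* probe in 15 of 24.

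The targeted gene and the marker genes were examined first. *Nfil3* in the WT controls read 8.44, 8.64, 8.51 and 9.03 (replicates 1 to 4), and in the KO controls it read 2.94, 3.80, 4.37 and 7.59. In lesioned ganglia it read 10.34 to 10.76 at day 2 and 10.64 to 11.08 at day 5 in WT, and 3.03 to 6.22 and 2.82 to 5.81 in KO, so every KO sample lay below every WT sample. The library labelled KO control replicate 4 was thus nearer to the WT controls than to the other KO controls, and its labels disagree with each other: the title gives control, another field gives day 5, and it was kept as a control by its title. Of the members' calls below, leaving it out lost 1, that of the second *Bdnf* probe in KO at day 2 (adjusted p = 0.107). Each array carried 2 samples, one per dye, and in every group 2 samples shared an array with a sample of the same time point and the other 2 with a sample of another time point. The injury marker *Atf3* reached 9.28 and 10.00 in the WT controls and 9.04 and 9.66 in the KO controls that shared an array with a lesioned sample, against 7.25 to 7.69 in the other 4 controls, and 12.94 to 14.10 in lesioned ganglia. Leaving out these 4 controls ended the calls of the full-length *Ntrk2* probe in WT at both days, of *Gfra2* in WT at day 2 and KO at day 5, and of the second *Bdnf* probe in WT at day 2, with values given below. The tissue is labelled as DRG neurons, but markers of satellite glia, Schwann cells, fibroblasts and macrophages were well above background in all 24 samples. In such bulk RNA, fewer cells of a type and less RNA per cell cannot be told apart.

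Of the 9 genes, 4 were called in WT ganglia at day 2, against 11.2% of all gene names, and 3 of these were higher and 1 lower, against 5.16% and 6.06% of all gene names. At day 5 in WT it was again 4 (3 higher, 1 lower), against 13.9% of all gene names (6.43% higher, 7.49% lower). In KO ganglia 4 were called at day 2 (3 higher, 1 lower), against 11.9% (5.54% higher, 6.40% lower). At day 5 in KO it was 3 (2 higher, 1 lower), against 12.8% (6.14% higher, 6.70% lower). The share of the members called was thus above that of all gene names in each comparison. This is a description only, since the members were chosen with earlier results of these data known. All gene names also include probes that were not well above background. *Gfra1* and *Gfra3* rose in all 4 of these comparisons, by 1.39 to 1.55 and 0.97 to 0.99. *Bdnf* rose at day 2 in both genotypes and at day 5 in WT. *Gfra2* fell in WT at both days and in KO at day 5, and *Ntrk3* fell in KO at day 2. *Gdnf*, *Ret* and *Ngfr* were not called. For *Ntrk2* the full-length probe was called in WT at both days and the truncated-transcript probes were not, and in KO none of its probes was called. The median difference over the 9 genes was 0.03, -0.13, 0.50 and 0.12 in WT day 2, WT day 5, KO day 2 and KO day 5, and over all gene names it was -0.03, -0.03, -0.01 and -0.03.

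**Figure D1:**
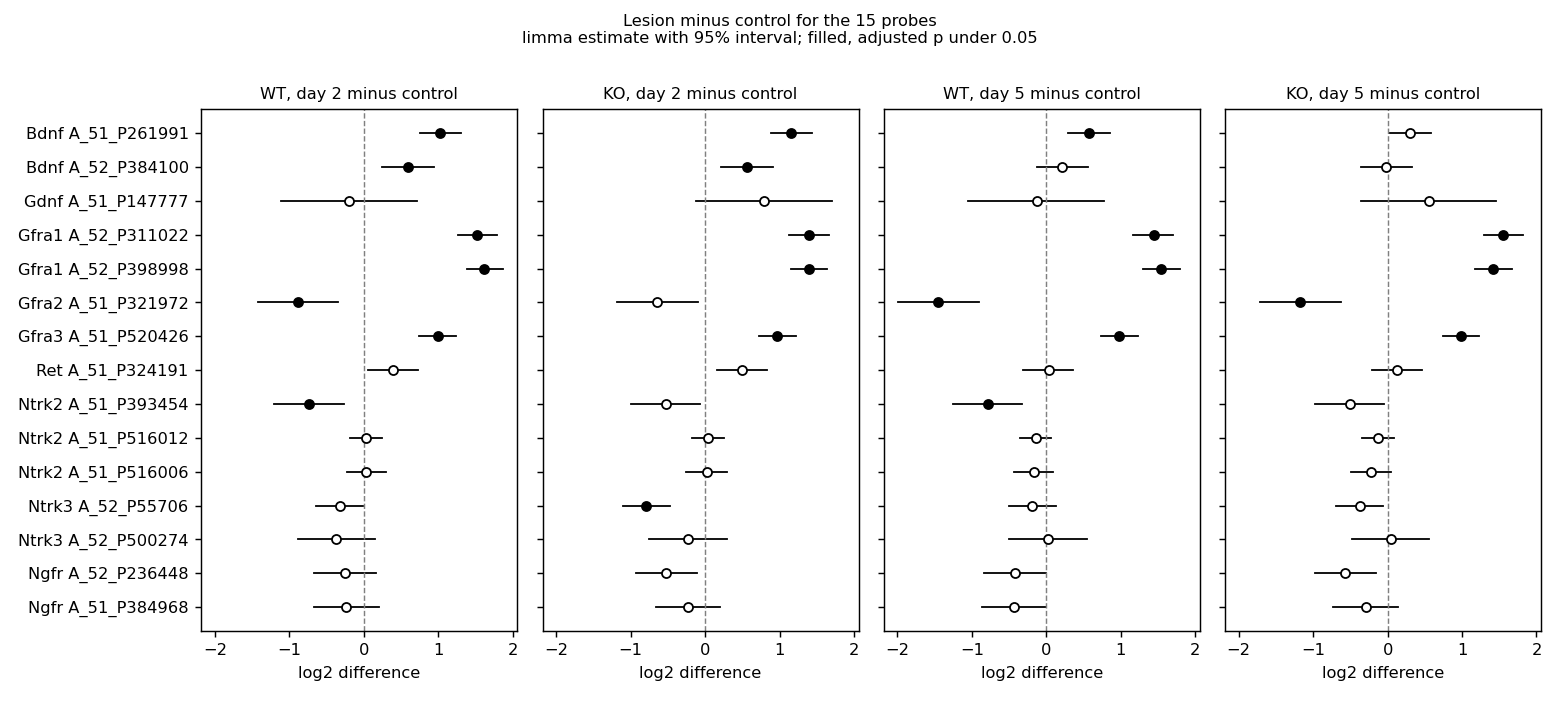
Lesioned minus control for the 15 probes in WT and KO ganglia at day 2 and day 5. The x axis is the difference in log2 intensity, points are limma estimates, lines their 95% intervals, and filled points have an adjusted p under 0.05. Both *Gfra1* probes and the *Gfra3* probe lie to the right of 0 in every panel, and the *Gfra2* probe lies to the left in every panel.

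Of the ligands, *Bdnf* was the one that rose. Its coding probe read 9.30, 9.38, 8.87 and 9.15 in the WT controls, 10.22, 10.36, 10.14 and 10.11 at day 2, and 9.64, 9.72, 9.83 and 9.80 at day 5. In KO ganglia it read 9.62, 8.98, 9.10 and 8.99 in the controls, 10.32, 10.35, 10.28 and 10.38 at day 2, and 9.75, 9.49, 9.34 and 9.32 at day 5. The order of the levels was the same in both genotypes, with day 2 highest and control lowest. Groups did not overlap in WT, whereas in KO the day 5 values overlapped the controls, because replicate 1 of KO control, at 9.62, lay above 3 of the 4 day 5 samples.

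At day 2 *Bdnf* rose by 1.03 in WT (SE 0.13, limma adjusted p = 2.93e-05) and by 1.16 in KO (adjusted p = 6.61e-06). At day 5 the difference was 0.57 in WT (adjusted p = 0.00629) and 0.30 in KO (adjusted p = 0.179). The lack of a KO call at day 5 rested on KO control replicate 1: without it, the difference was 0.45 with a limma adjusted p of 0.0191. From day 2 to day 5 *Bdnf* fell in KO by 0.86 (adjusted p = 0.00210), the only one of the 9 genes called in this comparison, in which 0.975% of all gene names were called. In WT the change from day 2 to day 5 was -0.46 (adjusted p = 0.164), and 0 of the 9 genes were called, against 0.745% of all gene names. The day 2 and day 5 values of *Bdnf* did not overlap in either genotype, as was so for 6.23% of all gene names in WT and 5.64% in KO. In the fits to 12 samples by array partner, described below, this KO call was lost (-0.81 and -0.91, adjusted p = 0.373 and 0.142), and so was the WT rise at day 5 (0.64 and 0.50, adjusted p = 0.167 and 0.307), the samples with a partner of the same time point given first. The later KO fall was not compared directly with the WT change. The time by genotype interaction, a joint limma F test of the day 2 and day 5 lesion differences between genotypes, had an unadjusted p of 0.125.

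A second *Bdnf* probe, A_52_P384100, read 5.92 to 6.43 in WT controls, 6.77 to 6.84 at day 2 and 6.18 to 6.69 at day 5, and 6.00 to 6.78, 6.59 to 7.06 and 6.12 to 6.52 in KO. It rose at day 2 by 0.60 in WT (adjusted p = 0.0240) and by 0.56 in KO (adjusted p = 0.0318), and its differences at day 5 were 0.21 and -0.02, neither called. These day 2 calls were less firm: the WT call was lost without control replicate 3 or 4 or day 2 replicate 2 or 3 (0.50 to 0.59), and the KO call without control replicate 2, 3 or 4 or day 2 replicate 2, 3 or 4 (0.46 to 0.58). Without the 4 controls that shared an array with a lesioned sample the WT difference was 0.56 and was not called. Both probes therefore gave their larger difference at day 2.

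*Gdnf*, the ligand of GFRα1, was near the detection limit. It read 4.12 to 5.34, 3.79 to 5.07 and 4.09 to 5.15 in WT control, day 2 and day 5, and 3.64 to 4.74, 4.69 to 6.25 and 4.03 to 6.24 in KO. All groups overlapped, the standard error of a difference was 0.44, and the differences of -0.20, -0.13, 0.79 and 0.55 in WT day 2, WT day 5, KO day 2 and KO day 5 were not called. A change of this size in *Gdnf* was not detectable at this signal.

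**Figure D2:**
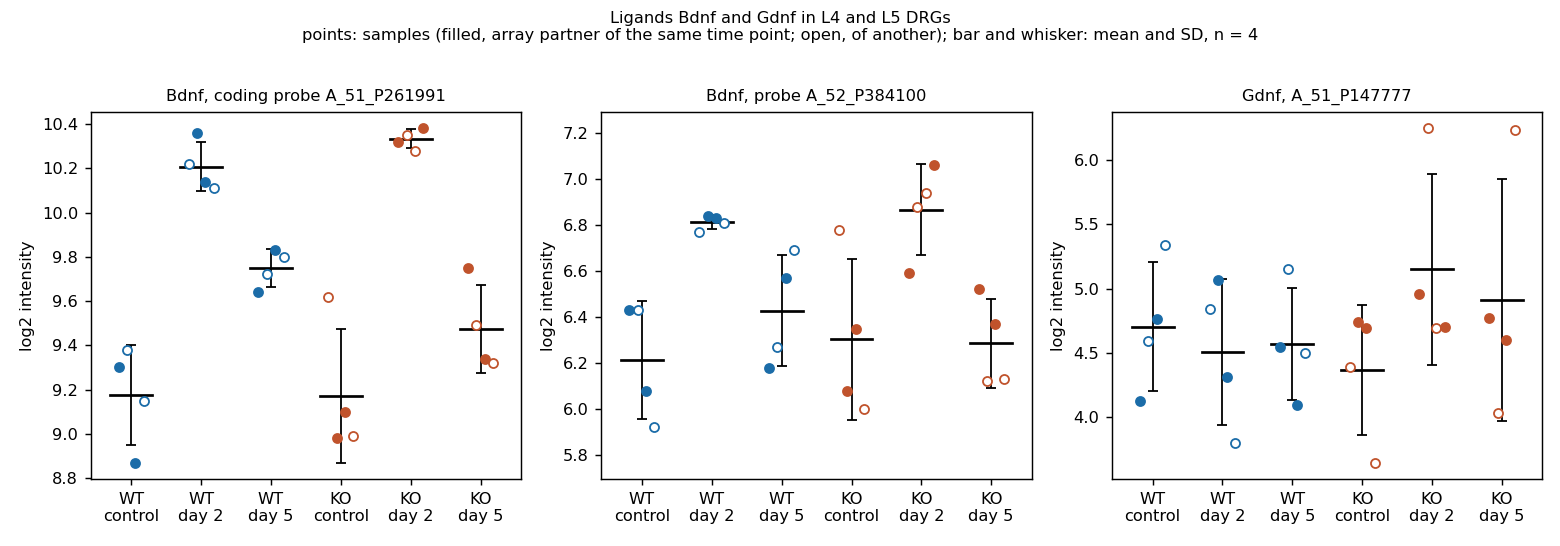
The ligands in the 6 groups. The y axis is log2 intensity, points are samples (filled where the other sample on the array was of the same time point, open where it was of another), and the bar and whisker are the mean and SD of 4 samples. *Bdnf* is highest at day 2 in both genotypes, and the *Gdnf* groups overlap.

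*Gfra1*, the GDNF co-receptor, had the largest rise of the 9 genes in all 4 comparisons. It read 9.07, 9.26, 9.05 and 9.21 in the WT controls, 10.66, 10.82, 10.58 and 10.63 at day 2, and 10.61, 10.52, 10.64 and 10.57 at day 5. In KO it read 9.17, 9.0, 9.11 and 9.26 in the controls, 10.65, 10.81, 10.00 and 10.66 at day 2, and 10.81, 10.73, 10.61 and 10.59 at day 5. Every lesioned sample lay above every control sample, and the lowest of the lesioned samples was replicate 3 of KO day 2. The rises were 1.52 and 1.44 in WT (adjusted p = 7.27e-08 and 1.10e-07) and 1.39 and 1.55 in KO (adjusted p = 2.77e-07 and 4.18e-08) at day 2 and day 5, each with an SE of 0.13. The other *Gfra1* probe, A_52_P398998, which lies further towards the 3′ end, rose by 1.62 and 1.54 in WT and by 1.39 and 1.42 in KO (adjusted p from 1.03e-08 to 9.45e-08). Those 4 calls held under all 39 alternative settings.

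*Gfra3*, the artemin co-receptor of nociceptors, rose by less. It read 11.94, 12.07, 11.72 and 11.81 in the WT controls, 12.99, 12.93, 12.61 and 12.96 at day 2, and 12.92, 12.91, 12.94 and 12.70 at day 5. The KO values were 12.04, 11.77, 12.06 and 11.96 in the controls, 13.08, 12.92, 12.82 and 12.90 at day 2, and 12.63, 13.20, 13.03 and 12.91 at day 5. Control and lesioned groups did not overlap in either genotype. The rises were 0.99 and 0.98 in WT and 0.97 and 0.99 in KO (SE 0.12, adjusted p from 8.20e-06 to 1.36e-05), so they differed from each other by less than the SE.

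*Gfra2*, the neurturin co-receptor, moved the other way. It read 7.54, 7.75, 7.70 and 7.83 in the WT controls, 7.13, 6.21, 6.47 and 7.48 at day 2, and 6.21, 6.24, 6.35 and 6.20 at day 5. In KO it read 7.69, 7.47, 7.52 and 7.87 in the controls, 6.67, 7.62, 7.47 and 6.23 at day 2, and 6.56, 6.50, 6.46 and 6.32 at day 5. All 8 day 5 samples lay below all 8 controls, whereas the day 2 samples were split, with the KO day 2 group reaching into the range of its controls.

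At day 5 *Gfra2* fell by 1.45 in WT (SE 0.26, adjusted p = 5.85e-04) and by 1.17 in KO (adjusted p = 0.00430). At day 2 it fell by 0.88 in WT (adjusted p = 0.0326), and the KO difference was -0.64 (adjusted p = 0.126). Leaving out any of the WT controls except replicate 1, or replicate 2 or 3 of WT day 2, ended the WT day 2 call (-0.88 to -0.68, adjusted p = 0.0700 to 0.134), and without KO day 2 replicate 2 the KO difference was -0.85 (adjusted p = 0.0409). The split at day 2 followed the other sample on the array. In WT the 2 day 2 samples that shared an array with another day 2 sample averaged 6.34 and the other 2 averaged 7.30, and in KO the averages were 6.45 and 7.54. A fit to the 12 samples with a partner of the same time point gave -1.28 in WT (adjusted p = 0.0114) and -1.04 in KO (adjusted p = 0.0189) at day 2, and a fit to the other 12 gave -0.48 and -0.23 (adjusted p = 0.287 and 0.666). At day 5 both fits gave a called fall in each genotype, of -1.34 and -1.56 in WT and -0.98 and -1.36 in KO. Without the 4 controls that shared an array with a lesioned sample, the KO fall at day 5 was 1.03 with an adjusted p of 0.0997, and the WT fall at day 2 was lost too, with an adjusted p of 0.234.

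Of the 3 markers of non-peptidergic nociceptors on the array, 2 moved with *Gfra2* and 1 did not. The summed level of *P2rx3*, *Scn11a* and *Lpar3* was 12.13 to 12.68 over the 8 controls and 10.90 to 11.32 at day 5, and *Scn11a* and *Lpar3* fell at day 5 in each genotype. *P2rx3* was not called, and its group means were 8.57, 8.90 and 8.91 in WT control, day 2 and day 5 and 8.88, 8.91 and 8.94 in KO. At day 2 the summed level of the 3 markers averaged 11.04 in WT samples with a partner of the same time point and 12.01 in the others. In KO these averages were 11.16 and 12.18, which is the split seen in *Gfra2*. Their part in the *Gfra2* difference was not tested.

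*Ret* encodes the kinase that all the GFRα co-receptors use, and it was not called. It read 7.30, 7.51, 7.49 and 7.72 in the WT controls, 8.07, 7.83, 7.41 and 8.28 at day 2, and 7.54, 7.45, 7.54 and 7.59 at day 5. The KO values were 7.57, 7.28, 7.49 and 7.55 in the controls, 7.62, 8.35, 7.90 and 8.02 at day 2, and 7.54, 7.73, 7.67 and 7.44 at day 5. Only the KO day 2 group lay wholly above its controls. The day 2 differences were 0.39 in WT (adjusted p = 0.137) and 0.50 in KO (SE 0.16, adjusted p = 0.0506), and the day 5 differences were 0.03 and 0.12. The KO day 2 difference was called under 11 of 39 alternative settings, among them leaving out KO day 2 replicate 1 (0.61, adjusted p = 0.0241) or WT day 2 replicate 3 or 4, and the WT day 2 difference was 0.56 (adjusted p = 0.0217) without WT day 2 replicate 3. By array partner, the same time point first, the day 2 means lay above those of the controls by 0.12 and 0.68 in WT and by 0.35 and 0.65 in KO, so here the samples with a partner of another time point were the higher ones. Unlike those of *Gfra1* and *Gfra3*, the day 5 values of *Ret* overlapped the controls in both genotypes.

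**Figure D3:**
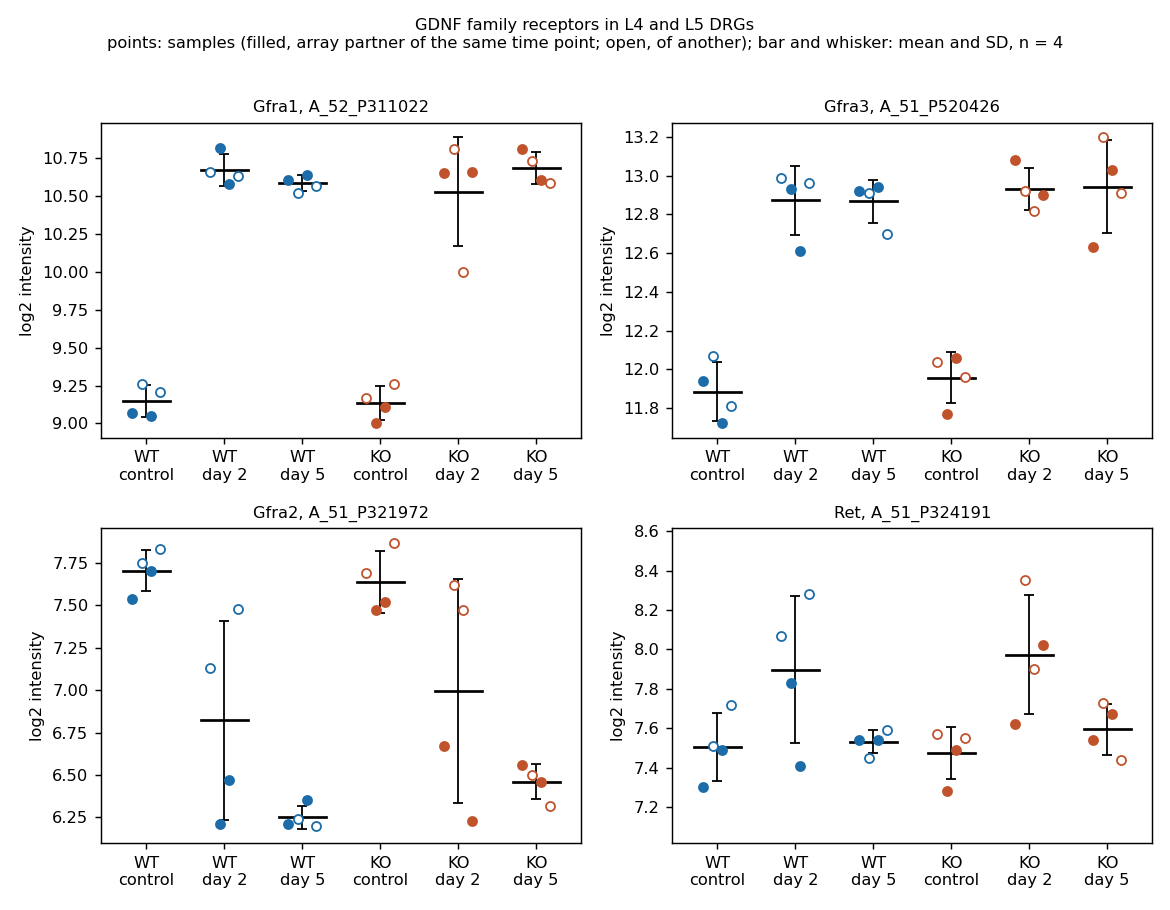
The GDNF family receptors in the 6 groups. The y axis is log2 intensity, points are samples (filled where the other sample on the array was of the same time point, open where it was of another), and the bar and whisker are the mean and SD of 4 samples. *Gfra1* and *Gfra3* are higher in all lesioned samples, *Gfra2* is lower in all day 5 samples, and at day 2 its open points lie above its filled points.

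The 3 probes of *Ntrk2* did not behave alike. Probe A_51_P393454 matches the transcript of full-length TrkB, with the kinase domain, and lies at chr13:59230936-59230995. Probes A_51_P516012, at chr13:59033682-59033741, and A_51_P516006, next to it at chr13:59033742-59033800, match the truncated transcript, which lacks the kinase domain and in the nervous system is largely made by glia. The latter has the highest mean of the 3 and stands for the gene in the counts above.

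The full-length probe read 9.39, 9.26, 9.27 and 9.27 in the WT controls, 8.88, 8.33, 8.20 and 8.84 at day 2, and 8.58, 8.38, 8.53 and 8.53 at day 5. In KO it read 9.22, 9.24, 9.35 and 9.31 in the controls, 8.19, 9.40, 9.27 and 8.12 at day 2, and 8.72, 8.68, 8.84 and 8.82 at day 5. All WT lesioned samples and all KO day 5 samples were below every control, while KO day 2 held 2 low samples and 2 at the level of the controls. The probe fell by 0.73 (adjusted p = 0.0389) and 0.79 (adjusted p = 0.0202) in WT at day 2 and day 5, with an SE of 0.22, and in KO the differences were -0.53 (adjusted p = 0.140) and -0.51 (adjusted p = 0.162). The WT day 2 call was lost when any 1 WT control or WT day 2 replicate 2 or 3 was left out (-0.74 to -0.61, adjusted p = 0.0662 to 0.131), and likewise with slide as a block (-0.70, adjusted p = 0.0505). The WT day 5 call was lost without WT control replicate 1 or WT day 5 replicate 2 (-0.76 and -0.75, adjusted p = 0.0505 and 0.0554). Without the 4 controls that shared an array with a lesioned sample neither WT call held (-0.76 and -0.82, adjusted p = 0.187 and 0.131). In KO at day 2 the difference was -0.75 without replicate 2 and -0.71 without replicate 3 of that group (adjusted p = 0.0249 and 0.0364). At day 2 this probe split with the array partner as *Gfra2* did: the means for a partner of the same time point and of another were 8.26 and 8.86 in WT and 8.16 and 9.34 in KO.

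The truncated-transcript probes stayed close to their controls. Their differences were 0.03, -0.14, 0.04 and -0.13 for A_51_P516012 and 0.03, -0.17, 0.02 and -0.22 for A_51_P516006 in WT day 2, WT day 5, KO day 2 and KO day 5, none of them called (adjusted p of 0.329 or more). Within each sample the full-length value minus that of A_51_P516012 changed from -1.09 ± 0.16 (SD, n = 4) in WT controls to -1.85 ± 0.28 at day 2 and -1.74 ± 0.21 at day 5. In KO it was -1.07 ± 0.18 in controls, -1.65 ± 0.76 at day 2 and -1.45 ± 0.20 at day 5. The shifts of -0.76 and -0.65 in WT each gave p = 0.0286 in a two-sided exact permutation test, the smallest value that 4 against 4 samples allow, and those of -0.58 and -0.38 in KO gave p = 0.314 and 0.0571 in the same exact test. Adjusted over the 4 tests the values were 0.0571, 0.0571, 0.314 and 0.0762 by the exact permutation test. The unequal change of the 2 transcripts in WT thus passed the threshold only before adjustment.

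*Ntrk3*, the neurotrophin-3 receptor of large-diameter neurons, read 8.73, 8.47, 8.36 and 7.85 in the WT controls, 8.02, 8.0, 8.31 and 7.78 at day 2, and 8.29, 8.13, 7.99 and 8.23 at day 5. In KO it read 8.60, 8.77, 8.43 and 8.53 in the controls, 7.61, 7.64, 7.90 and 8.02 at day 2, and 8.12, 8.27, 8.22 and 8.22 at day 5. In KO both lesioned groups lay below the controls, whereas the WT groups overlapped, with replicate 4 of WT control lower than all but 1 of the lesioned WT samples. It fell in KO at day 2 by 0.79 (SE 0.15, adjusted p = 0.00162), a call that neither fit to 12 samples by array partner kept (adjusted p = 0.10 and 0.239). The other differences were -0.37 in KO at day 5 (adjusted p = 0.129) and -0.32 and -0.19 in WT (adjusted p = 0.215 and 0.537). Without replicate 4 of WT control the WT day 2 difference was -0.49, with an adjusted p of 0.0226. The KO lesion difference minus the WT lesion difference at day 2 was -0.46 (limma unadjusted p = 0.0421, adjusted p = 0.9998), so a larger fall in KO was not shown. The other *Ntrk3* probe, A_52_P500274, gave -0.37 and 0.02 in WT and -0.23 and 0.04 in KO, none called. Of 5 markers of large-diameter neurons, 2, 1, 2 and 2 fell in WT day 2, WT day 5, KO day 2 and KO day 5. *Spp1* lay higher in every lesion comparison without being called. Its group means were 11.56, 12.18 and 12.13 in WT control, day 2 and day 5, and 11.66, 11.98 and 12.25 in KO. The summed level of the 5 was 15.92 to 16.53 in controls and 15.29 to 15.82 after the lesion. That sum mostly follows *Nefh*, the brightest of them (group means 15.26 to 16.16). The part of these markers in the *Ntrk3* difference was not tested.

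*Ngfr*, the p75NTR gene, had no called difference in the fit used here. Its representative probe read 13.87, 14.18, 14.01 and 13.88 in the WT controls, 13.68, 13.31, 13.48 and 14.45 at day 2, and 13.61, 13.47, 13.66 and 13.51 at day 5. The KO values were 14.45, 13.92, 14.16 and 14.10 in the controls, 13.34, 14.01, 13.93 and 13.28 at day 2, and 13.65, 13.56, 13.64 and 13.51 at day 5. All day 5 samples lay below the controls of their genotype, and the day 2 samples were spread over the whole range. The differences were -0.25 (adjusted p = 0.516) and -0.42 (adjusted p = 0.199) in WT and -0.52 (adjusted p = 0.102) and -0.57 (adjusted p = 0.0694) in KO. Without WT day 2 replicate 4, whose spread enters the shared error, the KO differences were called, with adjusted p = 0.0309 at day 2 and 0.0168 at day 5. The KO day 5 difference was called under 7 of 39 alternative settings in all, among them slide as a block (-0.64, adjusted p = 0.0238) and array as a random block (-0.58, adjusted p = 0.0320). The coding probe printed above gave -0.24, -0.43, -0.23 and -0.29, none called. The day 2 means by array partner, the same time point first, were 13.40 and 14.07 in WT and 13.31 and 13.97 in KO, so *Ngfr* split as *Gfra2* and full-length *Ntrk2* did.

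**Figure D4:**
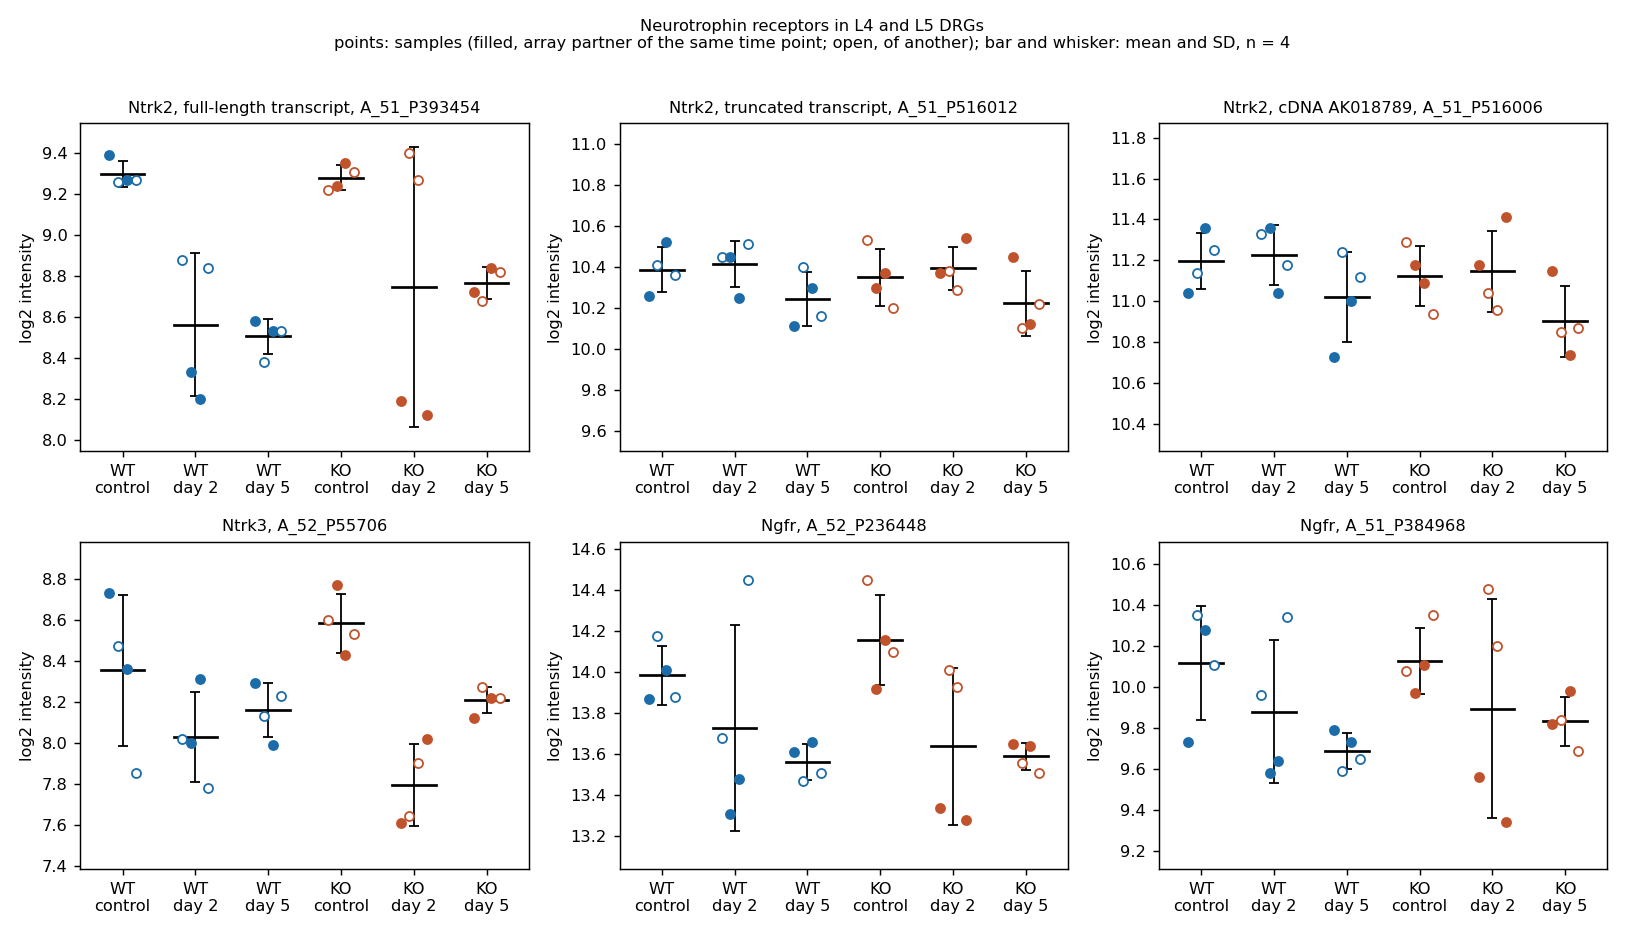
The neurotrophin receptors in the 6 groups. The y axis is log2 intensity, points are samples (filled where the other sample on the array was of the same time point, open where it was of another), and the bar and whisker are the mean and SD of 4 samples. The full-length *Ntrk2* probe is lower in all lesioned WT samples than in the WT controls, the truncated-transcript probe is not, and *Ntrk3* is lower in all lesioned KO samples than in the KO controls.

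*Gfra1* and *Bdnf* did not split by array partner as *Gfra2*, *Ret*, *Ngfr* and full-length *Ntrk2* did. The day 2 samples with a partner of the same and of another time point lay above the mean of their controls by 1.55 and 1.49 in WT and 1.51 and 1.26 in KO for *Gfra1*, and by 1.07 and 0.99 in WT and 1.18 and 1.15 in KO for *Bdnf*. Both genes thus lay above their controls in both sets of samples. With only the 12 samples whose partner was of another time point, however, the KO day 2 differences of *Gfra1*, *Gfra3* and *Bdnf*, at 1.19, 0.88 and 1.01, no longer passed the threshold (adjusted p = 0.107, 0.0774 and 0.117), nor did that of *Bdnf* in WT, at 0.90 (adjusted p = 0.126). With only the other 12 samples the *Gfra3* difference in KO at day 5 was 0.92 (adjusted p = 0.0665). The part of the array partner in any of these values was not tested.

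A number of members changed without overlap of their groups. The counts of such genes depend on the background, since 16.9% and 20.1% of all gene names did not overlap in WT at day 2 and day 5, and 14.3% and 20.2% in KO. *Gfra1* and *Gfra3* were separate as well as called in all 4 comparisons, *Bdnf* and *Gfra2* in WT at both days, *Bdnf* in KO at day 2, *Gfra2* in KO at day 5, *Ntrk3* in KO at day 2 and full-length *Ntrk2* in WT at both days. *Ngfr* at day 5 in both genotypes, *Ret* in KO at day 2, and *Ntrk3* and full-length *Ntrk2* in KO at day 5 were separate without being called.

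The study asked how loss of *Nfil3* changes the injury response, and here KO and WT were compared for these genes within each condition. In control ganglia 0 of the 9 genes were called between KO and WT by limma, as were 0 of all gene names (0%). At day 2 it was 0 of the 9, against 0.0146% of all gene names, and at day 5 0 of the 9, against 0.0109%. At an unadjusted p under 0.05 the count of members was 0 in all 3 conditions. The gene names not called in control ganglia include the deleted gene *Nfil3*, although its group means were 8.66 in WT and 4.67 in KO controls. A count of 0 in this comparison therefore does not show that expression was alike. Among the representative probes the largest differences outside *Gdnf* were a *Bdnf* difference of -0.27 at day 5 (95% interval -0.55 to 0.01, unadjusted p = 0.0542) and a *Ntrk3* difference of 0.23 in controls and -0.23 at day 2 (95% intervals -0.08 to 0.55 and -0.55 to 0.08).

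The intervals show what size of difference these samples could have missed. For *Gfra3* the KO minus WT difference was 0.07, 0.06 and 0.07 in control, day 2 and day 5, with no interval reaching beyond -0.19 or 0.32. For *Gfra1* the intervals ran from -0.41 to 0.36 over the 3 conditions. *Gfra2* was less well determined, with -0.07 (-0.60 to 0.47), 0.18 (-0.36 to 0.71) and 0.21 (-0.33 to 0.75). For *Gdnf* the interval at day 2 ran from -0.26 to 1.57. The full-length *Ntrk2* probe was 0.26 higher in KO at day 5 (95% interval -0.20 to 0.72), where the 4 KO samples, at 8.68 to 8.84, lay above the 4 WT samples, at 8.38 to 8.58, and this was not called (unadjusted p = 0.250). At day 5, 2.50% of all gene names were separate between the genotypes in this way. For the change with time, limma's time by genotype interaction called 0 of the 9 genes, and 0 of all gene names (0%), with 0 of the 9 at an unadjusted p under 0.05. *Nfil3* was again not called, although its group means were 8.66, 10.52 and 10.92 in WT control, day 2 and day 5 and 4.67, 4.67 and 4.42 in KO. The interaction test could thus miss a difference of that size.

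**Figure D5:**
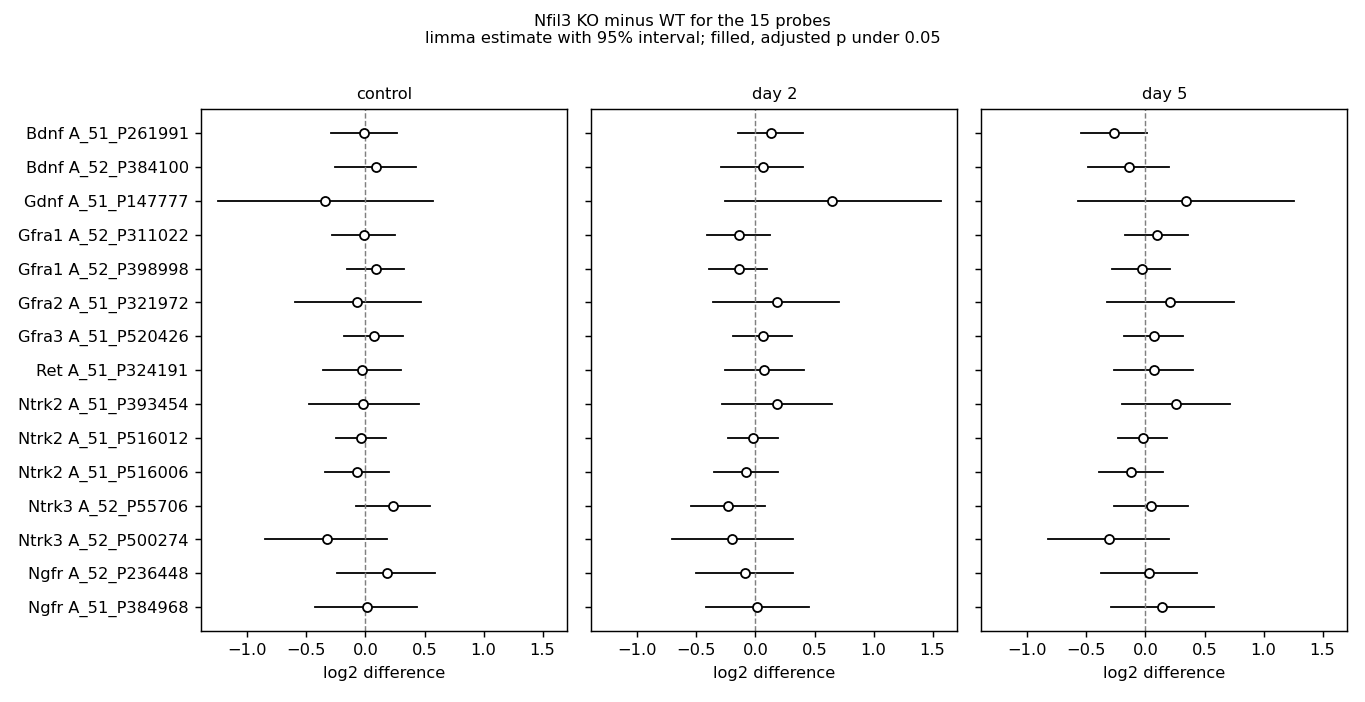
*Nfil3* KO minus WT for the 15 probes in control, day 2 and day 5 ganglia. The x axis is the difference in log2 intensity, points are limma estimates, lines their 95% intervals, and open points were not called. Every interval holds 0, and those of *Gdnf* are the widest.

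The wider pathway was described with a list of 39 ligands, receptors, adaptors and target genes, of which 37 were on the array under these names. In WT 9 of the 37 were called at day 2 (2 higher, 7 lower) and 12 at day 5 (3 higher, 9 lower), where 11.2% and 13.9% of all gene names were called. In KO it was 8 (4 higher, 4 lower) and 12 (4 higher, 8 lower), where 11.9% and 12.8% of all gene names were called. Their median difference was between -0.12 and -0.10 in the 4 comparisons, and 0 were called between KO and WT or for the interaction. Most of the called genes of the list were lower after the lesion, except in KO at day 2, and lower calls also outnumbered higher ones over all gene names (6.06%, 7.49%, 6.40% and 6.70% lower against 5.16%, 6.43%, 5.54% and 6.14% higher in WT day 2, WT day 5, KO day 2 and KO day 5).

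Among the other ligands, *Ntf3*, which encodes neurotrophin-3, fell in all 4 comparisons, with fitted differences of -1.14, -1.13, -0.97 and -1.26 (adjusted p from 0.00428 to 0.0264). In 3 of the lesioned groups none of its signals cleared background, so the fall is a lower bound there: at least 2.21-fold lower in WT at day 2, 2.13-fold in WT at day 5 and 1.96-fold in KO at day 2. *Nrtn*, the ligand of GFRα2, fell by 0.49 (adjusted p = 0.0284) and 0.63 (adjusted p = 0.00425) in WT and by 0.48 (adjusted p = 0.0275) in KO at day 5. *Artn*, the ligand of GFRα3, is left without a level: in 0 of 24 samples did its probe exceed background clearly.

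Of the other receptors, *Lingo1*, a co-receptor of p75NTR, fell by 0.66, 0.69, 0.77 and 0.72 in WT day 2, WT day 5, KO day 2 and KO day 5 (adjusted p from 5.89e-04 to 0.00267). *Gfra4*, the persephin co-receptor, fell by 0.51 and 0.63 in WT and by 0.57 in KO at day 5 (adjusted p from 0.00177 to 0.0119). A second *Gfra4* probe, A_51_P241426, was called lower in all 4 comparisons, in KO at day 2 by 0.45 (limma adjusted p = 0.0280). The third, A_52_P409839, was lower in all 4 and called in none (limma adjusted p from 0.0627 to 0.168). These receptors moved opposite to *Gfra1* and *Gfra3*.

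The list held 18 adaptors and effectors, some of which couple these receptors to Ras and MAP kinase signalling. Of the 18, 2 were called in WT at day 2, 5 in WT at day 5, 2 in KO at day 2 and 4 in KO at day 5. The day 2 counts were thus near the share of all gene names. *Dok4* fell in all 4 comparisons, by 0.51, 0.69, 0.51 and 0.79, and *Shc1* by 0.37 and 0.56 in WT and 0.54 in KO at day 5. *Sos1*, an exchange factor for Ras, fell at day 5 by 0.59 in WT and 0.49 in KO. Its other probe, A_52_P341339, was lower already at day 2. The group means of that probe were 6.67, 6.05 and 5.86 in WT control, day 2 and day 5 and 6.83, 6.08 and 5.91 in KO. *Maged1*, which encodes a partner of p75NTR, rose at day 5 by 0.38 in WT and 0.25 in KO, and *Grb2*, which links receptors to SOS, rose in KO at day 2 by 0.30. The WT group means of *Grb2* moved likewise, from 13.14 in control to 13.42 at day 2, without being called. Among 7 target genes 2, 2, 3 and 3 were called in WT day 2, WT day 5, KO day 2 and KO day 5, all higher. *Lrig1*, which encodes a negative regulator of receptor tyrosine kinases including RET, rose by 0.74 and 0.82 in WT and by 0.62 and 0.70 in KO. *Fos*, a target of MAP kinase signalling, rose by 0.80, 0.80, 1.18 and 0.68 in WT day 2, WT day 5, KO day 2 and KO day 5.

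Cell type markers changed in the same comparisons. All 5 macrophage markers rose at day 5 in each genotype, with a summed level of 9.89 to 10.92 in controls, 12.04 to 12.33 in WT day 5 and 11.71 to 12.18 in KO day 5. The 3 peptidergic nociceptor markers on the array fell at day 5 in each genotype, at a summed level of 16.75 to 17.07 in controls and 15.86 to 16.46 at day 5, while *Gfra3* rose. None of the 5 Schwann cell markers was called. Of 4 satellite glia markers, 3 were called at day 2 in each genotype (2 higher, 1 lower) and 1 at day 5 (higher). *Glul* rose by 0.84 and 0.61 in WT and 0.71 and 0.67 in KO, *Cdh19* rose at day 2 by 0.52 in WT and 0.58 in KO, and *Fabp7* fell at day 2 by 1.02 in WT and 0.82 in KO. The pan-neuronal summed level was 18.66 to 19.06 in controls and 18.45 to 18.80 after the lesion. That sum mostly follows *Nefl* and *Uchl1*, the brightest of the 5 markers. In each genotype 1 of the 5 was called at day 2 (lower) and 2 at day 5 (1 higher, 1 lower). From control to day 5 the group mean of *Tubb3* went from 15.77 to 16.21 in WT and from 15.81 to 16.24 in KO. That of *Snap25* went from 14.35 to 13.62 in WT and from 14.37 to 13.58 in KO. Skeletal muscle markers ranged from 6.41 to 13.13 and were high in single samples. The part of these cells in the members' values was not tested.

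Other genes followed the members closely. As a description across the 24 samples, which share arrays, dyes and groups, the genes with the highest Pearson correlation among 14476 candidates were named. For *Gfra1* they were *Prc1*, *D3Bwg0562e* and *Sox11* (each r = 0.99), and for *Gfra3* *Nod2* (r = 0.98), *Rnf122* (r = 0.98) and *Ap1s1* (r = 0.97). For *Gfra2* they were *Smarca1* (r = 0.98), *Scin* and *Fam19a3* (each r = 0.97). The best match of *Bdnf* was *Saa2* (r = 0.94), of *Ngfr* *Grik4* (r = 0.91), of *Ret* *Wnt2b* (r = 0.89) and of *Ntrk3* *Igdcc4* (r = 0.86). The higher values belong to the members with the larger differences between control and lesioned ganglia.

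Promoters were read where RefSeq entries of build GRCm38.p6 were given, as windows from 250 bases before to 50 bases after a start site. There were 7 for *Bdnf*, 2 for *Gdnf* and 1 each for *Gfra1*, *Ngfr* and *Ntrk2*. They were searched on both strands for the NFIL3 sites TTACGTAA and TTATGTAA, for the CREB site TGACGTCA and for the AP-1 site TGANTCA. The only match was an AP-1 site in 1 *Bdnf* window, at chr2:109676782-109677081 on the plus strand. Of 32851 promoter windows of this length, 7.81% held TGANTCA, 1.79% TGACGTCA, 0.938% TTATGTAA and 0.119% TTACGTAA. A match is a description of the letters in the window and not evidence of binding.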

How the data were processed

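Two-colour Agilent 4x44K whole mouse genome arrays were used as single channels: 12 arrays on 3 slides carried 24 samples, 2 of each group per dye. The authors deposited each array's scanner output, with spot intensity values as Feature Extraction wrote them, not normalised. The mean foreground intensity of each channel was corrected with the median background by the Edwards method, following the methods of the study, outlier spots were set to missing (0 missing member values), control spots were left out, channels were quantile-normalised, and spots of a probe were averaged on the log2 scale, in R 4.3.3 with limma 3.58.1 and data.table (version 1.17.8). Differences were tested with limma (1 mean per group, eBayes, Benjamini-Hochberg over all probes), a fit tested on simulated data. The simulated samples were independent, so that test does not cover samples that share an array. In the data the consensus correlation within arrays was 0.26. No spot was saturated, and 54.5 to 72.3% of probes per sample were well above background (mean 68.9% for Cy3, 62.4% for Cy5); the number of arrays limits the precision.

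The 9 members, the pathway and marker lists and the rule for genes most like a member were chosen with earlier results of these data known. For members well above background in at least 20 samples, that rule took the 3 highest correlations among genes well above background in all 24. Alternatives changed background correction, normalisation, filters, dye, slide, array, replicate number, variance model and samples. Fits by array partner were added after seeing the data. A summed level is log2 of the sum of a list's intensities. Some genes of the pathway list are counted but not reported singly here.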

Additional observations from a re-analysis of the deposited data

Results flagged for a closer look

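In 4 of 90 groups of 4 samples tested over the 15 probes, 1 sample lay apart from the other 3 by Dixon's test, where chance gives about 1 in 20. For *Gfra3*, replicate 3 of WT day 2 was the lowest at 12.61, with the nearest sample at 12.93 (gap over range 0.86), and replicate 4 of WT day 5 was the lowest at 12.70, with the nearest at 12.91 (0.90). For the full-length *Ntrk2* probe, replicate 1 of WT control was the highest at 9.39, with the nearest at 9.27 (0.95). For *Ntrk3* probe A_52_P500274, replicate 4 of WT control was the highest at 8.76, with the nearest at 7.93 (0.84). The same sample was the lowest WT control for the other *Ntrk3* probe, at 7.85.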

How the results depend on the processing

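Leaving out 1 sample at a time, between 3 and 4 of the 9 genes were called in WT at day 2 and 4 at day 5. In KO it was 4 to 6 at day 2, 3 to 4 at day 5 and 1 from day 2 to day 5. Over the 16 other alternatives the counts were 2 to 4, 3 to 4, 0 to 5, 2 to 4 and 0 to 1. Counts for KO against WT, the interaction and WT day 5 against day 2 were 0 throughout. The moves past 1.5 times came from fits to 12 samples, chosen after seeing the data: with an array partner of another time point, WT day 2 gave 2, KO day 2 gave 0 and KO day 5 against day 2 gave 0, and with a partner of the same time point KO day 5 against day 2 gave 0. These fits hold fewer samples. Of 24 single-probe calls, 10 held under every alternative run; no called difference changed sign, and 172 of 5265 values changed sign, all for differences not called, of at most 0.55.

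Replicate numbers did not pair samples: same-numbered samples correlated at -0.06 to 0.21, the number was tied to the dye, and 11 of 24 samples correlated best with their own number. With the replicate number as a block WT gave 3 calls at day 2 and 4 at day 5, and KO gave 4, 3 and, from day 2 to day 5, 1. The WT day 2 differences no longer called with the block were those of *Gfra2* (-0.88, adjusted p = 0.0529) and the full-length *Ntrk2* probe (-0.73, adjusted p = 0.0583).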
